A study of Mus musculus with 6 samples.

Results

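The respiratory chain and ATP synthase of naive CD4+ T cells were followed here at the RNA level, for the subunits encoded in nuclear DNA and for those encoded in mitochondrial DNA. Members were chosen by symbol, from the Nduf, Sdh, Uqcr, Cox4 to Cox8, Cyc1, Cycs, Atp5 and mitochondrial mt-Nd, mt-Co, mt-Cytb and mt-Atp families, and no measured value entered the choice. They came to 114 of the 52997 symbols in the count table, 101 nuclear (94 genes and 7 pseudogenes) and 13 mitochondrial. The infant group was 10 days old and the adult group 7 weeks old, both Foxp3-GFP animals on C57BL/6, with 3 mice in each and each library made from 1000 cells of the pooled lymph nodes of a single mouse, passed through the sorter 2 times. The study set infant against adult to describe how these T cells differ with age, and sex is not among the labels used here. Because these are bulk samples, fewer expressing cells and less RNA per cell cannot be told apart, and p-values measure the spread between these mice.

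Electrons from NADH enter the chain at complex I and those from succinate at complex II. They pass through coenzyme Q to complex III, through cytochrome c to complex IV and on to oxygen, and complex V (ATP synthase) uses the proton gradient that complexes I, III and IV build. Complexes I, III, IV and V are mosaics of proteins made from both genomes, while complex II is wholly nuclear. Naive T cells are known to rely largely on oxidative phosphorylation, and they enlarge their mitochondria and change their metabolism once activated.

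The libraries held 4115742 to 4739304 counts in the infant group and 3421253 to 4887371 in the adult group, and replicates of either group differed by more than sampling noise, with a chi-square over its degrees of freedom of 5.07 to 12.96. Genes with a count numbered 36373 in adult replicate 2 and 17992 to 21840 elsewhere. All 16 CD4 T cell markers were expressed well enough to be tested, and their summed level was 13380 to 13876 CPM (counts scaled to the library's effective size) in infant and 12921 to 15013 CPM in adult libraries. Of 6 tested cycling-cell markers 3 were higher in infant cells, with summed levels of 86.1 to 167 CPM in infant and 10.9 to 40.6 CPM in adult libraries, and their part in the results for the members was not tested. Summed markers of B cells came to 5.32 to 8.45 CPM in infant libraries, against 17.3 CPM in adult replicate 2 and at most 9.615 CPM in the other adult libraries. Those of myeloid and dendritic cells came to 20.3, 20.1 and 16.2 CPM in infant libraries, against 12.4, 34.1 and 5.98 CPM in adult libraries, where the highest was again adult replicate 2. The 2 of 10 myeloid markers that could be tested, Itgam and Cd68, had log2 fold changes of 0.80 ± 0.35 and 1.12 ± 0.59 and were not called (edgeR adjusted p = 0.257 and 0.359), and the part of such cells in the results for the members was not tested.

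The messages of mitochondrial DNA carried 0.888%, 0.869% and 0.891% of all counts in the infant libraries, against 0.833%, 0.736% and 0.806% in the adult libraries. These shares did not overlap between the groups, and the difference of 0.0909 percentage points was 0.0632 without adult replicate 2. On the CPM scale the groups did overlap. The summed mitochondrial members came to 8813, 8653 and 9156 CPM in infant libraries, against 8672, 7157 and 8414 CPM in adult libraries. These shares rest on part of the mitochondrial messages only. Between a base inside mt-Co1 and a base inside mt-Nd4, each gene listed 0 to 18 counts per library. This stretch holds mt-Co2 and mt-Co3, which encode catalytic-core subunits of complex IV, mt-Atp8 and mt-Atp6 of the membrane part of complex V, and mt-Nd3 and mt-Nd4l of the membrane arm of complex I. In the annotation, a run of pseudogenes on the minus strand of chromosome 1 (24611535 to 24616197, GRCm38) holds copies of the same messages. The identical run starts at base 1067 of mt-Co1 and ends at base 876 of mt-Nd4, and it covers bases 1 to 681 of 684 in mt-Co2, 1 to 678 of 681 in mt-Atp6, 1 to 783 of 784 in mt-Co3, 4 to 345 of 348 in mt-Nd3 and 1 to 294 of 297 in mt-Nd4l. The following 120-base stretches show both edges, a message inside the copied stretch and a message outside it. Capitals mark bases inside the run identical to the chromosome 1 copy, and the sequences are GENCODE M21 transcripts on GRCm38, all on the plus strand, at chrM:6334-6453 for mt-Co1, chrM:10983-11102 for mt-Nd4, chrM:7013-7132 for mt-Co2 and chrM:2751-2870 for mt-Nd1.
mt-Co1: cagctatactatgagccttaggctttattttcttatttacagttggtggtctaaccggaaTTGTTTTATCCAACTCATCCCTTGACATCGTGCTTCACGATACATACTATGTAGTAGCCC
mt-Nd4: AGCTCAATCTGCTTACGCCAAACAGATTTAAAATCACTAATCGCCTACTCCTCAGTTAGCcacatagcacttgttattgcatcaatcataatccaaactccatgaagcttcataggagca
mt-Co2: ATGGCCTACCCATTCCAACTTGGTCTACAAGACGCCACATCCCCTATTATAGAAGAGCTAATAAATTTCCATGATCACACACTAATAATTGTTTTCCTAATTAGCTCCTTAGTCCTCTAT
mt-Nd1: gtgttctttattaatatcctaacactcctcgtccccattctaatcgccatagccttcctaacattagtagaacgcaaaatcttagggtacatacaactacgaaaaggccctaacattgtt

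For mt-Co2, 100% of the 25-base words, the length of a read, also occurred in other annotated loci, and it had 0 counts in all 6 libraries. The share was 99.9% for mt-Co3 (1 count in all 6 libraries), 99.5% for mt-Atp6 (5 counts), 98.9% for mt-Nd4l (0 counts) and 98.1% for mt-Nd3 (73 counts). The chromosome 1 copies had 0 to 3 counts each in any library, so the counts were not found there either. At the other end of the range mt-Nd1, a membrane subunit of complex I with no shared word, had 3922 to 5474 counts. The exception was mt-Atp8, which shared 11.7% of its words with annotated loci and also had 0 counts; it lies between mt-Co2 and mt-Atp6, and the part of chromosome 1 between their annotated copies was not analysed here. A count of 0 allows at most 3 counts, or 0.628 to 0.852 CPM by library, for counting error only. The treatment of reads with several matching places is not stated in the labels or notes, and its part in these low counts was not tested. No level or absence is therefore read from the genes of this stretch, although mt-Nd3 passed the filter on low counts and is among the tested messages below. Both mt-Nd4l and mt-Nd4 are known to be read from a bicistronic messenger RNA. Here mt-Nd4 had 1382 to 2753 counts and mt-Nd4l had 0, and the cause of this difference was not tested.

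**Figure D1:**
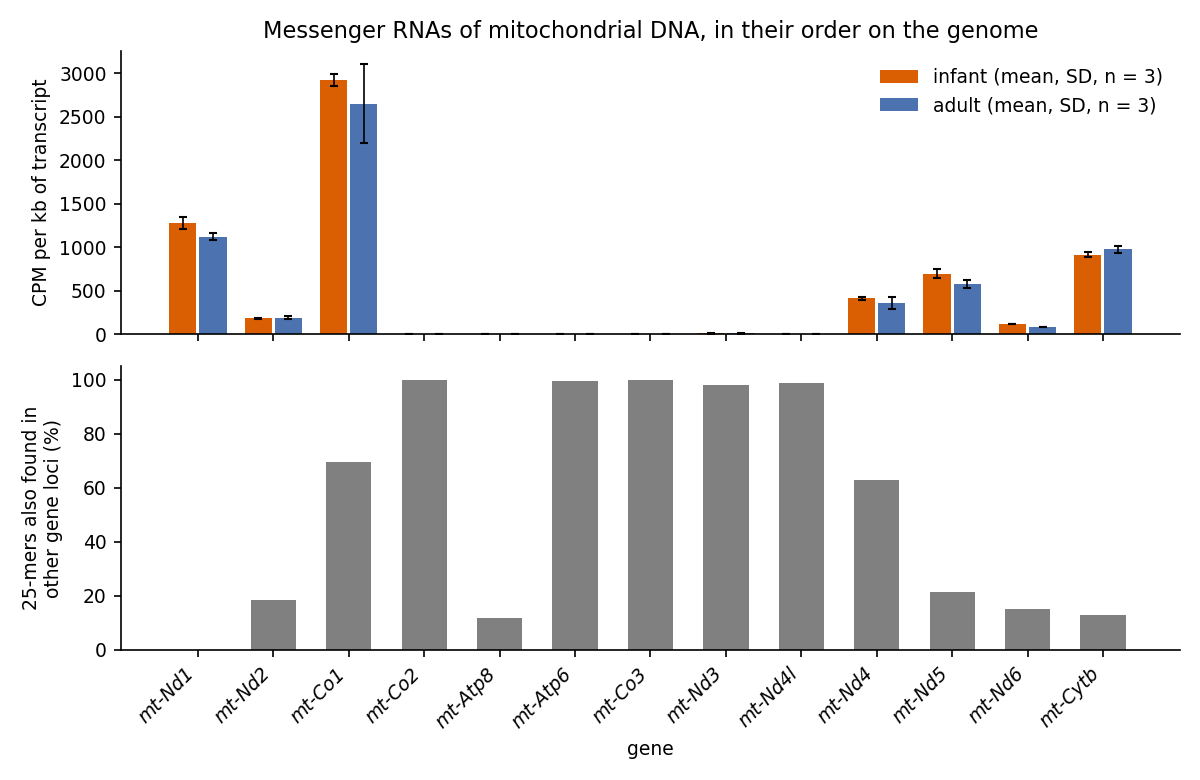
The upper panel plots CPM per kb of transcript for the 13 mitochondrial messages in genome order (bars, mean of 3 infant libraries at the left and 3 adult libraries at the right of each pair; error bars, SD), and the lower panel plots the percent of 25-base words of each message that also occur in other annotated gene loci. The 6 genes from mt-Co2 to mt-Nd4l sit near 0 in both age groups, and 5 of them share at least 98.1% of their words with other loci, while mt-Atp8 shares 11.7%.

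Of the mitochondrial messages 8 passed the filter on low counts, and none was called at an adjusted p under 0.05 (edgeR quasi-likelihood test, Benjamini-Hochberg adjustment over all 11681 tested genes), with 2 of 8 at an unadjusted p under 0.05, beside 3.64% of all tested genes called and 17.3% at that unadjusted p. The median log2 fold change of the 8, infant over adult, was 0.16, beside -0.0017 for all tested genes and -0.0021 for the nuclear members. Without adult replicate 2 it was 0.13, beside 0.01 for all tested genes and 0.11 for the nuclear members, so the 2 genomes then had close medians. In complex I, 3 messages had infant values wholly above adult values, as did 11.2% of all tested genes. The first, mt-Nd6, had 62.2, 61.4 and 62.6 CPM in infant libraries, against 42.2, 44.3 and 43.4 CPM in adult libraries. Its replicates lay closer together than the gap between the groups, and the log2 fold change was 0.52 ± 0.15 (SE), with an edgeR adjusted p = 0.0686 that missed the threshold. With the trend of fold change on transcript length removed, the edgeR adjusted p of mt-Nd6 was 0.0441. This gene lies on the minus strand (chrM:13552-14070), opposite to the other mitochondrial protein genes, and overlaps the end of mt-Nd5 from 13552 to 13565; without strand in the protocol, RNA copied from the opposite strand of mt-Nd6 cannot be told apart from its own.

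The largest complex I message, mt-Nd5, had 1250.4, 1179 and 1363 CPM in infant libraries, against 1136, 961 and 1068 CPM in adult libraries (log2 fold change 0.26 ± 0.10, edgeR adjusted p = 0.184). For mt-Nd1 the values were 1146, 1243 and 1278 CPM in infant and 1056, 1114 and 1053 CPM in adult libraries (0.19 ± 0.09, edgeR adjusted p = 0.322). In both, every infant value lay above every adult value by a margin that the test did not call. The order was turned round for mt-Cytb, the cytochrome b of complex III, with 1022, 1030.5 and 1087.5 CPM in infant and 1094, 1170.2 and 1089 CPM in adult libraries (-0.09 ± 0.09, edgeR adjusted p = 0.652). The catalytic subunit of complex IV, mt-Co1, had 4574, 4395 and 4594.5 CPM in infant libraries, against 4582, 3294 and 4413 CPM in adult libraries. Here adult replicate 2 alone stood apart, and the log2 fold change of mt-Co1 was 0.14 ± 0.11 with it and 0.01 without it. The groups also overlapped for mt-Nd4 (0.19 ± 0.12), mt-Nd2 (-0.06 ± 0.11) and mt-Nd3 (0.11 ± 0.56, from 9 to 18 counts a library). Of the words of mt-Nd4, 62.9% also occur in other loci, and mt-Nd3 lies inside the copied stretch.

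The genes from mt-Co2 to mt-Nd4l, from which no level is read, are left out of the following order. Per kb of transcript, the highest mean level over the 6 libraries among the other members was that of mt-Co1 at 2789 CPM per kb, then mt-Nd1 at 1200.0, mt-Cytb at 946, the nuclear Cox4i1 at 749, mt-Nd5 at 636 and the nuclear Atp5b at 587. Of the words of mt-Co1, 69.7% also occur in other loci, and their part in its level was not tested. Neighbours in this order overlapped between libraries in several cases: Cox4i1 ran from 641 to 815 CPM per kb and mt-Nd5 from 527 to 747. The summed count of the mitochondrial members divided by that of the nuclear members was 0.812, 0.745 and 0.779 in infant libraries and 0.811, 0.633 and 0.751 in adult libraries, so that the groups overlapped. Like the shares of counts, this ratio rests on part of the mitochondrial messages only, and it does not give the balance of the 2 genomes.

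Among the nuclear genes, the relative RNA levels of infant and adult cells were close for most of the chain. Of 86 tested, 72 had a log2 fold change within 0.25 of 0. For 60 the 95% interval of the fold change lay within 1.5-fold in either direction. The 25th and 75th percentiles of the log2 fold change over all tested genes were -0.24 and 0.22. Of all 94 tested members of both genomes 3 were called, 1 higher and 2 lower in infant cells, which is 3.19%, beside 3.64% of all tested genes (1.52% higher and 2.11% lower). Infant and adult values did not overlap for 23 of the 94 (24.5%, 12 above and 11 below), beside 22.8% of all tested genes (11.2% above and 11.6% below). An unadjusted p under 0.05 was reached by 13 members, beside 17.3% of all tested genes. These shares are near the background. The count of called members was 2 without adult replicate 2, 1 without infant replicate 1, infant replicate 3, adult replicate 1 or adult replicate 3, and 0 in edgeR without infant replicate 2, where 10 had an unadjusted p under 0.05. The median over the nuclear members was -0.0021 on the log2 scale, and the extremes were -0.75 (Ndufaf3) and 0.53 (Atp5g3).

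**Figure D2:**
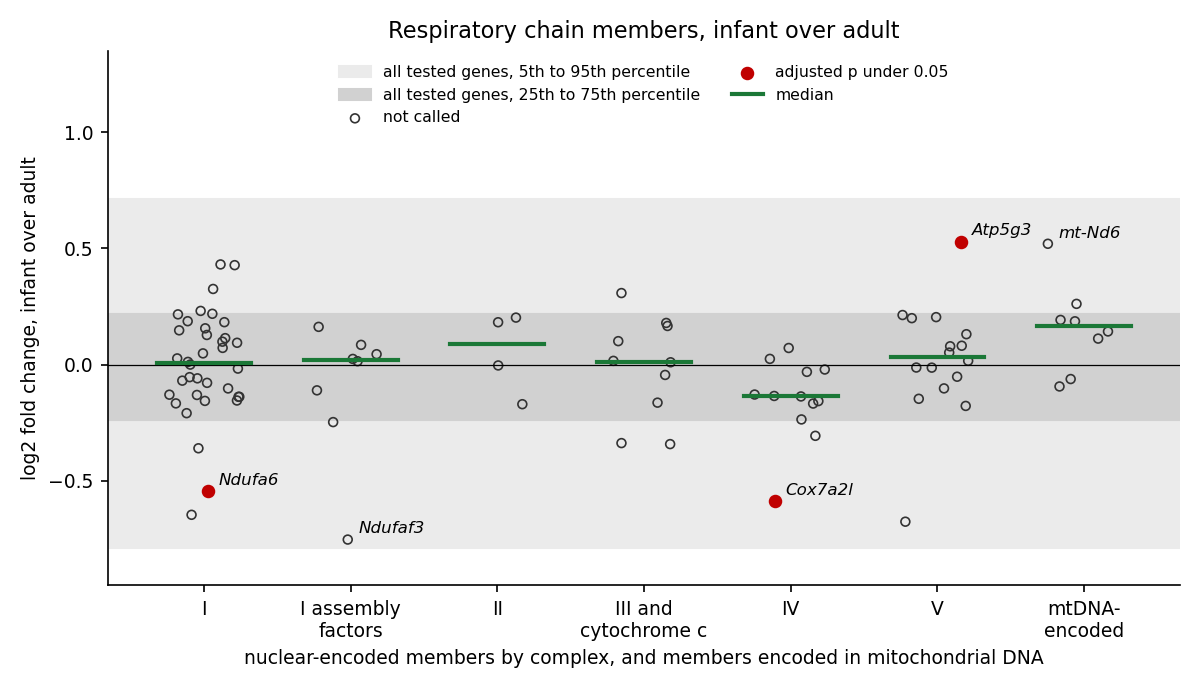
Each point is the log2 fold change, infant over adult, of a tested member, in columns for the nuclear genes of each complex and for the mitochondrial messages; filled red points passed an adjusted p under 0.05, green lines are column medians, and grey bands are percentiles of all tested genes. The 3 called members are Ndufa6 at -0.55, Cox7a2l at -0.59 and Atp5g3 at 0.53, and the column medians run from -0.14 for complex IV to 0.16 for the mitochondrial messages.

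The 3 called members belong to 3 different complexes, and each is a single gene among partners that were not called. Their promoters (RefSeq, GRCm38.p6, 250 bases before to 50 after the annotated start, each on the minus strand) are shown because nuclear respiratory genes are known to share binding sites for the factors NRF1, GABP, YY1 and SP1. They lie at chr17:83514284-83514583 for Cox7a2l, chr15:82354242-82354541 for Ndufa6 and chr2:73911277-73911576 for Atp5g3. The Cox7a2l window lies inside the GENCODE span of the gene, which reaches 83517330, so it may not describe the outermost start. Capitals mark TGCGCA (NRF1 core) and GGGCGG (SP1) on either strand, which do not overlap here; CCGGAAG (GABP) and AAGATGGC (YY1) were searched too and had no match in the 3 windows.
Cox7a2l: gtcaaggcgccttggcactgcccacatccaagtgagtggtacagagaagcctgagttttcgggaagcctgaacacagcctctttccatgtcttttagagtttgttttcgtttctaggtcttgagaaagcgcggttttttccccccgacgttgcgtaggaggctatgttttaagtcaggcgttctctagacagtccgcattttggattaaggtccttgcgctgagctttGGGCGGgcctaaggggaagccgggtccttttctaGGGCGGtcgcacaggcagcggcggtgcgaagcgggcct
Ndufa6: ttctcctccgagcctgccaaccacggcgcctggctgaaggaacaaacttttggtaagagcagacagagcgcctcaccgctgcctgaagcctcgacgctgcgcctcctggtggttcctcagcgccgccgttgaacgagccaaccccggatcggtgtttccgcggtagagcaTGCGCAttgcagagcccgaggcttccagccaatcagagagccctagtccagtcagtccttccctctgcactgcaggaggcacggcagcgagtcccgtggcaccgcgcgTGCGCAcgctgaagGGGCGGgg
Atp5g3: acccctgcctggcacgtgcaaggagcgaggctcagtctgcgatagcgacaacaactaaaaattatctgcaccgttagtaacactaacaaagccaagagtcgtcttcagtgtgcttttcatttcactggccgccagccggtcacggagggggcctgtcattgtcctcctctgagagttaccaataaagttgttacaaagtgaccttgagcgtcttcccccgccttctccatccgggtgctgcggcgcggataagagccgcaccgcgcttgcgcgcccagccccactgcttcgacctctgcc

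Ndufa6 held 2 matches to TGCGCA and 1 to GGGCGG, Cox7a2l held 2 to GGGCGG, and Atp5g3 held none of the 4 motifs. Across the members, 80 promoters of 75 of the 94 nuclear genes were in the table. TGCGCA occurred in 23.8% of them, beside 7.76% of all 32851 promoters in the table, CCGGAAG in 22.5% beside 8.86%, AAGATGGC in 12.5% beside 2.75%, and GGGCGG in 43.8% beside 35.7%. A match describes letters in a window and is not evidence of binding.

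Cox7a2l encodes the supercomplex factor SCAF1, a relative of the complex IV subunit Cox7a2 that links complex IV to complex III; C57BL/6 mice are known to carry a shorter form of the protein. The gene (chromosome 17, 83501918 to 83517330, minus strand, GRCm38) had 225, 241 and 248 CPM in infant libraries, against 349, 337 and 386 CPM in adult libraries. The groups were well separated, and the level was lower in infant cells by 0.59 on the log2 scale (-0.59 ± 0.10, edgeR adjusted p = 0.0060). The infant mean was 238 ± 11.5 CPM and the adult mean 357 ± 25.6 CPM (SD, n = 3 each). Of its 25-base words 24.9% recur elsewhere, most in the processed pseudogene Gm6969 on chromosome 12, which had 1 to 3 counts in infant and 7 to 9 in adult libraries. The call held with every tool and scaling tried, but not without infant replicate 1 (edgeR adjusted p = 0.0536) or infant replicate 2 (0.0611).

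Ndufa6 (chromosome 15, 82350140 to 82354322, minus strand) is a complex I accessory subunit of the LYR family that anchors the mitochondrial acyl carrier protein Ndufab1. It had 70.8, 82.0 and 76.6 CPM in infant libraries, against 98.7, 121 and 115 CPM in adult libraries. All infant values lay below all adult values, with a log2 fold change of -0.55 ± 0.13 (edgeR adjusted p = 0.0354). The call was lost on leaving out any single library (edgeR adjusted p = 0.0577 to 0.160), with no filter on low counts (0.120) and after thinning all libraries to the same depth (0.0565). Ndufab1, named here after its values were seen, had 26.8, 24.4 and 16.7 CPM in infant and 37.6, 35.2 and 33.8 CPM in adult libraries (-0.65 ± 0.21, edgeR adjusted p = 0.123). The third LYR or acyl carrier subunit, Ndufb9, had a log2 fold change of 0.05 ± 0.14.

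Atp5g3 (chromosome 2, 73908447 to 73911326, minus strand) is among 3 genes that encode the same mature subunit c, the protein of the rotating ring of ATP synthase, with different targeting peptides. It had 223, 256 and 258 CPM in infant libraries, against 177, 173 and 161 CPM in adult libraries. The infant values were all above the adult values, with a log2 fold change of 0.53 ± 0.11 (edgeR adjusted p = 0.0151). Without infant replicate 2, infant replicate 3, adult replicate 1 or adult replicate 3 the call was lost (edgeR adjusted p = 0.126, 0.0932, 0.0651 and 0.0818). Atp5g1 had a log2 fold change of 0.08 ± 0.19 and Atp5g2, 87.8% of whose words recur elsewhere, of 0.02 ± 0.31. Summed over the 3 genes, subunit c messages came to 269, 303 and 310 CPM in infant and 228, 224 and 198 CPM in adult libraries. Atp5g3 made up most of this sum in every library.

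**Figure D3:**
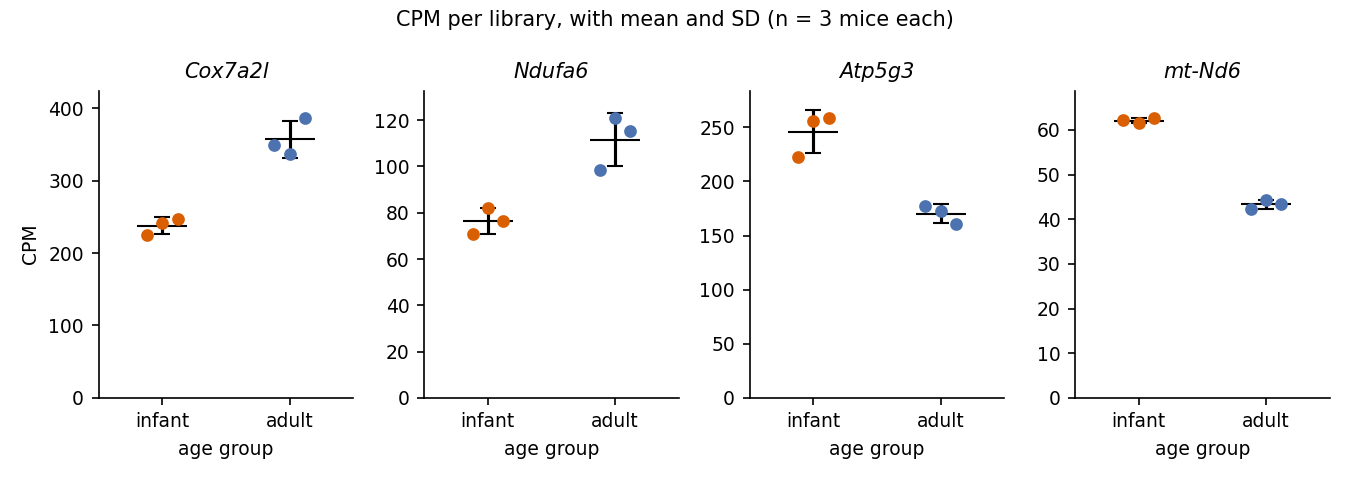
CPM in each library (points) of Cox7a2l, Ndufa6, Atp5g3 and mt-Nd6, infant left and adult right in each panel, with the group mean and SD (black, n = 3 mice each) on axes that start at 0. In all 4 panels the infant and adult points do not overlap; Cox7a2l and Ndufa6 are lower in infant cells, Atp5g3 is higher, and mt-Nd6 lies higher without passing the adjusted threshold.

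In complex I, 36 nuclear subunits were tested and Ndufa6 was the only call; 18 had positive and 18 negative log2 fold changes, with a median of 0.01. The N module oxidises NADH, and 6 of its 8 subunits had positive log2 fold changes (median 0.17). Ndufs1, its largest iron-sulfur subunit, had 220, 195 and 171 CPM in infant libraries, against 148, 120.2 and 166 CPM in adult libraries (0.43 ± 0.14, edgeR adjusted p = 0.107). Ndufv3, a small accessory subunit of the module, had 93.2, 83.9 and 99.0 CPM in infant libraries, against 62.1, 77.3 and 66.2 CPM in adult libraries (0.43 ± 0.14, edgeR adjusted p = 0.116). Infant values were all above adult values in both genes, and neither passed. The Q module, which passes electrons to coenzyme Q, had a median of -0.06 over 5 subunits, of which 2 were positive.

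Of the complex I assembly factors 8 were tested and none was called by edgeR, with 1 at an unadjusted p under 0.05. That gene was Ndufaf3, which acts early in assembly together with Ndufaf4. Ndufaf3 had 18.6, 21.04 and 17.1 CPM in infant libraries, against 30.1, 33.5 and 32.3 CPM in adult libraries. The infant values were all lower (-0.75 ± 0.20, edgeR adjusted p = 0.0549), and the Wald test of DESeq2 called it with an adjusted p = 0.0435. Its partner Ndufaf4 had a log2 fold change of 0.16 ± 0.20. Ndufaf8, an assembly factor that stabilises Ndufaf5, had the highest level per kb of the 8 and a log2 fold change of -0.25 ± 0.25.

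No complex II gene was called among 4 tested, and none reached an unadjusted p under 0.05. Sdha, the flavoprotein that oxidises succinate, had 540.4, 485 and 472 CPM in infant libraries, against 617, 515 and 555 CPM in adult libraries (-0.17 ± 0.11). Sdhb, the iron-sulfur subunit, had 236, 257 and 278 CPM in infant libraries, against 232, 234 and 214 CPM in adult libraries (0.18 ± 0.11). The membrane anchors Sdhc and Sdhd had log2 fold changes of -0.00 ± 0.20 and 0.20 ± 0.13. Only Sdhb had groups that did not overlap.

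Complex III had no call among 9 tested nuclear subunits, with 2 at an unadjusted p under 0.05. Its core and redox subunits Uqcrc1, Uqcrc2, Uqcrfs1 (the Rieske protein) and Cyc1 (cytochrome c1) all had positive log2 fold changes, with a median of 0.14. Of its 5 small subunits 4 had negative ones, with a median of -0.16. This split moved with adult replicate 2. Without that library 7 of the 9 were positive and 2 negative (median 0.14), against 5 and 4 (median 0.01) with it. Adult replicate 2 stood above the other adult libraries by a log2 ratio of 0.76 for Uqcr10 and 1.00 for Uqcr11, and at -0.55 for Uqcrc2. Uqcrc2 had 282, 287 and 283 CPM in infant libraries, against 234, 175 and 279 CPM in adult libraries (0.31 ± 0.14, edgeR adjusted p = 0.281). Uqcrh, the hinge protein that faces cytochrome c1, had 183, 201 and 185 CPM in infant libraries, against 225, 270.2 and 226 CPM in adult libraries (-0.34 ± 0.11, edgeR adjusted p = 0.120). Cyc1 had a log2 fold change of 0.10 ± 0.13. Cycs, the mobile cytochrome c, had 9.21, 10.6 and 13.8 CPM in infant and 8.24, 14.2 and 7.69 CPM in adult libraries (0.17 ± 0.34), and 33.5% of its words recur in other loci, so its level is uncertain.

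Complex IV had the lowest nuclear median of the 5 complexes. Of its 12 tested nuclear genes, counting Ndufa4 and Cox7a2l, 10 had negative log2 fold changes (median -0.14), and only Cox7a2l was called. With the untested nuclear genes of the complex included, the summed level was 1417, 1640 and 1600.0 CPM in infant libraries, against 1663, 1955 and 1756 CPM in adult libraries. The mean of this sum was 1552 CPM in infant and 1791.5 CPM in adult libraries. Much of the difference lay in 2 genes, Cox7a2l with means of 238 and 357 CPM and Cox4i1 with 542 and 604 CPM. Without adult replicate 2 the median was -0.02, with 5 positive and 7 negative. Cox4i1, the ubiquitous form of subunit 4, had 490.1, 567 and 569 CPM in infant libraries, against 584, 624 and 606 CPM in adult libraries (-0.16 ± 0.10, edgeR adjusted p = 0.470). Cox6b1, which faces the intermembrane space, had a log2 fold change of -0.24 ± 0.15, Cox7a2 of -0.31 ± 0.21, Cox8a of -0.17 ± 0.14, Cox6a1 of -0.13 ± 0.16 and Ndufa4 of -0.02 ± 0.15, and none of these 5 was called.

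The tissue forms of complex IV subunits were barely counted in either group. Cox4i2, Cox7b2 and the Ndufa4 relative Ndufa4l2 had 0 counts in all libraries. The heart and muscle forms Cox6a2, Cox7a1 and Cox8b had at most 4 counts in any library, and the testis form Cox8c at most 2. Cox6b2, a testis form, had 5, 5 and 8 counts in infant libraries, against 1, 2 and 3 counts in adult libraries, too few to pass the filter. The 7 pseudogene symbols had at most 3 counts in any library. Together with the 5 mitochondrial messages of the copied stretch other than mt-Nd3, these made up the 20 members that were not tested.

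Complex V had 16 tested nuclear members, of which 9 were positive and Atp5g3 alone was called (median 0.03). The subunits of the catalytic head, Atp5a1, Atp5b, Atp5c1, Atp5d and Atp5e, had a summed level of 3086, 3156 and 3449 CPM in infant and 2901, 2620.3 and 3137 CPM in adult libraries. Atp5b, the catalytic beta subunit, had 1176, 1128 and 1306 CPM in infant libraries, against 1078, 882 and 1174 CPM in adult libraries (0.20 ± 0.11, edgeR adjusted p = 0.394). Atp5a1, the alpha subunit, had 1156, 1198 and 1239 CPM in infant libraries, against 1059, 919 and 1149.9 CPM in adult libraries (0.20 ± 0.10, edgeR adjusted p = 0.340). The head sums overlapped, and adult replicate 2 was the lowest library in each of these values. Atp5s, named for coupling factor B, had 10.3, 8.71 and 7.49 CPM in infant libraries, against 16.2, 13.4 and 12.8 CPM in adult libraries (-0.68 ± 0.30, edgeR adjusted p = 0.258).

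Several of these small differences moved with adult replicate 2 and with transcript length. Among the 43 tested nuclear members with a main transcript of at most 963 bases, the median length, adult replicate 2 was the highest adult library for 39, and its median log2 ratio to the other adult libraries was 0.36. Among the 43 longer members it was the highest for 19, with a median ratio of -0.02. The median log2 fold change, infant over adult, was -0.06 for the shorter and 0.08 for the longer members, and with mean CPM taken without adult replicate 2 it was 0.06 and 0.13. Without that library the median over all nuclear members was 0.11, and 27 of 36 complex I subunits were positive (median 0.14). With the length trend removed from all libraries, the median over all nuclear members was 0.03 and the same 3 nuclear members were called.

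**Figure D4:**
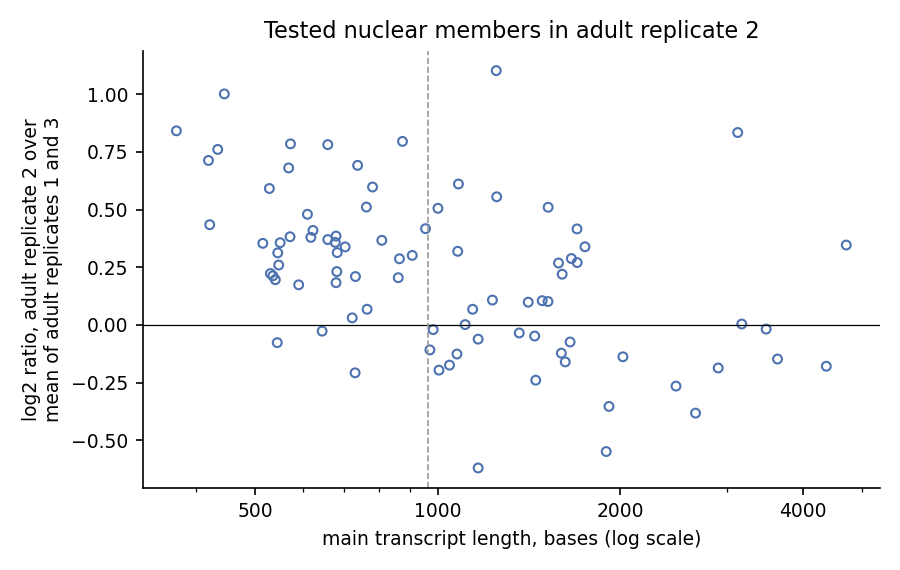
Each point is a tested nuclear member, with the length of its main transcript in bases on a log scale and the log2 ratio of adult replicate 2 over the mean of adult replicates 1 and 3; the dashed line marks the median length of 963 bases. Most shorter members lie above 0 (median 0.36), and the longer members lie around 0 (median -0.02).

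Genes that serve the chain without belonging to it were taken from 5 lists, and their counts stand beside the 3.64% of all tested genes that were called and the 17.3% at an unadjusted p under 0.05. Of 45 tested assembly factors outside the symbol families none was called by edgeR, with 9 at an unadjusted p under 0.05 and a median log2 fold change of 0.00, and the most abundant, Coa5, a complex IV assembly factor, and Sdhaf2, which helps to add the flavin to Sdha, had log2 fold changes of 0.29 ± 0.13 and 0.07 ± 0.12. Of 38 genes that copy, transcribe or translate mitochondrial DNA or process its RNA, 1 was called (2.63%), and the median was -0.06. This was Fastkd3, a mitochondrial RNA-binding protein of the FASTK family, with 17.0, 25.4 and 27.8 CPM in infant libraries, against 47.3, 44.6 and 38.5 CPM in adult libraries (-0.90 ± 0.21, edgeR adjusted p = 0.0319). None of 14 regulators of mitochondrial biogenesis was called by edgeR (4 at an unadjusted p under 0.05, median 0.02); Myc, which is known to raise nuclear genes for mitochondria, had 176, 197 and 222 CPM in infant libraries, against 135, 139 and 162 CPM in adult libraries (0.45 ± 0.12, edgeR adjusted p = 0.0604), and Gabpb2, a partner of the GABP factor, had a log2 fold change of 0.32 ± 0.13.

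None of 13 genes of coenzyme Q synthesis was called by edgeR (3 at an unadjusted p under 0.05, median 0.03), with Coq5 and Coq9 at -0.55 ± 0.15 (edgeR adjusted p = 0.0582) and 0.24 ± 0.13. None of 26 genes of mitochondrial content and import was called either (3 at an unadjusted p under 0.05, median 0.02). Cs, the citrate synthase often used to gauge mitochondrial mass, had 315, 300.1 and 359 CPM in infant and 333, 269 and 301 CPM in adult libraries (0.11 ± 0.11). Hspa9, the import motor chaperone mortalin, had a log2 fold change of 0.11 ± 0.13. A p that misses the threshold does not show that these levels were equal.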

How the data were processed

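The authors deposited a table of raw counts per gene symbol for 6 libraries. Per the labels' protocols, polyadenylated RNA was primed with oligo(dT), amplified by PCR, fragmented by transposase and read from both ends over 25 bases, without strand or molecular identifiers. Per the submitters' processing notes, STAR 2.5.4 and featureCounts were used on mm10; the sources used here give no annotation release. The table holds no column of another sample.

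The test was edgeR's quasi-likelihood F test (version 4.0.16, R 4.3.3) on genes kept by filterByExpr (minimum count 10, total 15), with TMM factors of 0.963 to 1.07, no covariate and Benjamini-Hochberg adjustment over 11681 genes at 0.05 (biological coefficient of variation 0.184). SEs were the size of the log2 fold change over the root of its F value, and intervals are 1.96 SE. CPM values were scaled by the counts of tested genes and the TMM factor. The fit was tested on simulated data. Positions, transcripts and shared 25-base words came from GENCODE M21 (GRCm38), which matched all 114 members; words were compared between annotated transcripts only. Promoters came from RefSeq (GRCm38.p6).

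The members, lists and tests were chosen with earlier results of these data known. Named genes were all mitochondrial members, called members, the 2 of smallest p not called and the highest per kb in each complex, paralog groups, complex II, Cyc1 and Cycs, and in context lists the called or else the 2 most abundant. Alternatives were other scalings (DESeq2 size factors, upper quartile, totals, without mitochondrial or without ribosomal genes), filters, DESeq2 1.42.0, limma-voom (limma 3.58.1), length and GC trends removed, thinning to 3421253 counts, adjusted p under 0.01, the replicate number as a block, and leaving out each library.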

Additional observations from a re-analysis of the deposited data

How the results depend on the processing

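Among the members picked by the naming rule, no value changed direction past the test under any alternative. For these members, 20 of 617 comparisons of values that were not called changed sign. Genes of the context and marker lists, Fastkd3 among them, were not followed through the alternatives. Nor were members given values outside that rule, such as Ndufab1, Ndufb9 and Ndufaf4. At an adjusted p under 0.01, 162 genes and 1 member (Cox7a2l) were called. Leaving out each library in turn gave 139 to 488 called genes and 0 to 2 called members. The count of genes was 176, 139 and 189 without infant replicates 1, 2 and 3, and 185 and 208 without adult replicates 1 and 3. Without infant replicate 2 edgeR called 0 members, with 10 at an unadjusted p under 0.05. With each library left out in turn, the median over nuclear members ran from -0.08 to 0.11, the median over mitochondrial messages from 0.13 to 0.21, and the difference in the mitochondrial share of counts from 0.0632 to 0.112 percentage points. With the GC trend removed, the median over mitochondrial messages was 0.12. DESeq2 called 622 genes and 4 members, and no filter 550 genes and 2 members.

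The replicate numbers in the titles did not pair the libraries (correlations of deviations -0.05, -0.01 and -0.09 for equal numbers). With the replicate number as a block, 326 genes and 3 members were called, the same 3 members. With 3 mice per group, each of the 3 calls was lost on leaving out at least 1 library, while the log2 fold changes kept their direction. They ran from -0.63 to -0.53 for Cox7a2l, from -0.62 to -0.49 for Ndufa6 and from 0.49 to 0.60 for Atp5g3. The part of near-identical copies in the levels of members was not tested.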
